A study of Mus musculus with 6 samples.

Results

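A set of 10 genes that mark astrocytes and Bergmann glia was followed in RNA from the cerebellum of mice labelled STIM1 knockout and wild type. The 10 genes, S100b, Aldh1l1, Gfap, Slc1a3, Slc1a2, Glul, Gja1, Aqp4, Apoe and Gdf10, were taken by name from the 24421 genes counted. All 10 were found and all 10 passed the filter on low counts. The tissue was the microdissected Purkinje neuron layer with the molecular layer, from 3 STIM1 knockout (KO) and 3 wild type (WT) mice, all 1 year old. STIM1 senses calcium in the endoplasmic reticulum and opens Orai channels when the store empties. The series title places the loss of STIM1 in Purkinje neurons, but the sources used here do not give the allele, the driver of any deletion or the strain. The comparison asks which transcripts differ between the genotypes, and for these genes how the glia of the layer read in each.

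Bergmann glia are the astrocytes of the cerebellar cortex. Their cell bodies lie beside the Purkinje cells and their processes run through the molecular layer, where they wrap Purkinje dendrites and synapses. They clear glutamate released by parallel and climbing fibres, turn it into glutamine, buffer potassium and pass small molecules to each other through gap junctions.

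The libraries held 645994 to 764839 counts in genes, and 98.8% of the uniquely aligned reads of every library were assigned to no gene. The sources used here do not give the strand setting of the counting. Whether these counts are mRNA of the genes named was not tested. Of the 10 genes, 7 share no exon with an annotated gene on the other strand. The other 3 share 499 bases (Aldh1l1, with Gm15756), 189 bases (Slc1a2, with Gm13872) and 116 bases (Glul, with Teddm2). Teddm2 had 0 counts in every library, which allows up to 3.92 to 4.64 CPM per library (3 counts, counting error only). The partners of Aldh1l1 and Slc1a2 were not found by name among the genes counted. Among 5130 tested genes with an annotation, 48.9% share exon with the other strand. Stim1 itself had 4, 3 and 2 counts in KO replicates 1 to 3, against 7, 21 and 3 in WT replicates 1 to 3, too few to check the genotype. Y-linked genes were read in KO replicate 3 (14 counts) and WT replicate 3 (28 counts) and had 0 counts in the other libraries, so these libraries stood apart from the rest of their groups.

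The 10 genes together took on average a smaller part of the KO libraries, with groups that overlapped. Their summed level was 1171, 898 and 1221 CPM (counts scaled to library size) in KO replicates 1 to 3, against 1371, 1476 and 1177 CPM in WT replicates 1 to 3. KO replicate 3 lay above WT replicate 3. The means were 1097 ± 174 CPM in KO and 1342 ± 152 CPM in WT (SD, n = 3 each), a log2 ratio of -0.29, which is given as a description with no test. The log2 ratio was -0.17 without KO replicate 2, the lowest library, and -0.47 without the libraries that hold Y-linked counts. In these bulk samples fewer glia and less RNA per glial cell cannot be told apart. As a share of all gene counts the 10 genes took from 0.0875% (KO replicate 2, Wilson 95% interval 0.0808% to 0.0948%) to 0.148% (WT replicate 2, 0.139% to 0.157%).

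Per exon length the 10 genes spread over a wide range of levels. S100b was the highest on average over the 6 libraries, with 89.4 ± 35.9 CPM per kilobase of merged exon in KO and 149.6 ± 12.5 in WT (SD, n = 3 each). Apoe had 102.8 ± 25.5 in KO and 101.1 ± 28.2 in WT on the same scale, and S100b exceeded it in 4 of 6 libraries, so their order was not settled. Apoe exceeded Slc1a3 in 6 of 6 libraries. Slc1a3 lay at 35.0 ± 5.82 in KO and 43.3 ± 6.21 in WT, and Glul, next in order, was below it in 5 of 6 libraries. Slc1a2 followed, at 13.5 ± 0.377 in KO and 17.7 ± 3.83 in WT, below Glul in 6 of 6 libraries and above Gja1 in 6 of 6. Gja1, Aqp4, Gdf10, Gfap and Aldh1l1 formed a low group with means over the 6 libraries of 7.11, 5.57, 5.48, 5.24 and 5.15 CPM per kilobase. Each gene of the low group exceeded the next in only 3 or 4 of 6 libraries. The median tested gene had 9.18 CPM per kilobase, so S100b (percentile 91.9), Apoe (90.8), Slc1a3 (80.8), Glul (77.3) and Slc1a2 (64.0) lay above it and the low group below.

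**Figure D1:**
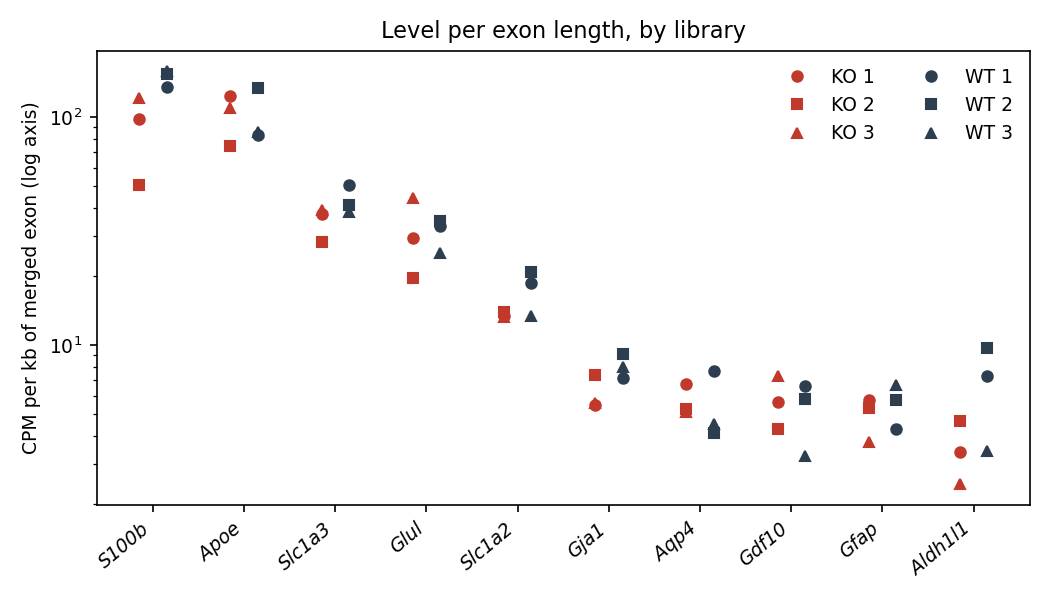
Level of each glial gene in CPM per kilobase of merged exon (log axis), for 3 KO libraries (red, left) and 3 WT libraries (dark, right), in order of the mean over 6 libraries. S100b and Apoe reached over 50 CPM per kilobase in every library, while the 5 genes on the right lay between 2.45 and 9.71.

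No gene of the 10 passed the comparison of KO with WT. In edgeR's quasi-likelihood test 0 of the 10, and 0 of all 5320 tested genes (0%), had a Benjamini-Hochberg adjusted p under 0.05. At an unadjusted p under 0.05, 3 of the 10 genes were lower in KO (S100b, Aldh1l1 and Slc1a2), against 162 of all tested genes (3.05%), and 0 of the 10 were higher, against 84 (1.58%), so that 4.62% of all tested genes lay below that p in either direction. The estimate was below 0 for 7 of the 10, against 49.8% of all tested genes, and the median log2 fold change was -0.24, against 0.0017 over all tested genes. S100b was the only one of the 10 whose groups did not overlap. Among all tested genes the 3 KO libraries lay below the 3 WT libraries in 6.13% and above them in 4.61%, 10.7% together. The 95% interval lay inside a 2-fold change either way for 8 of the 10 genes, all but Aldh1l1 and S100b.

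**Figure D2:**
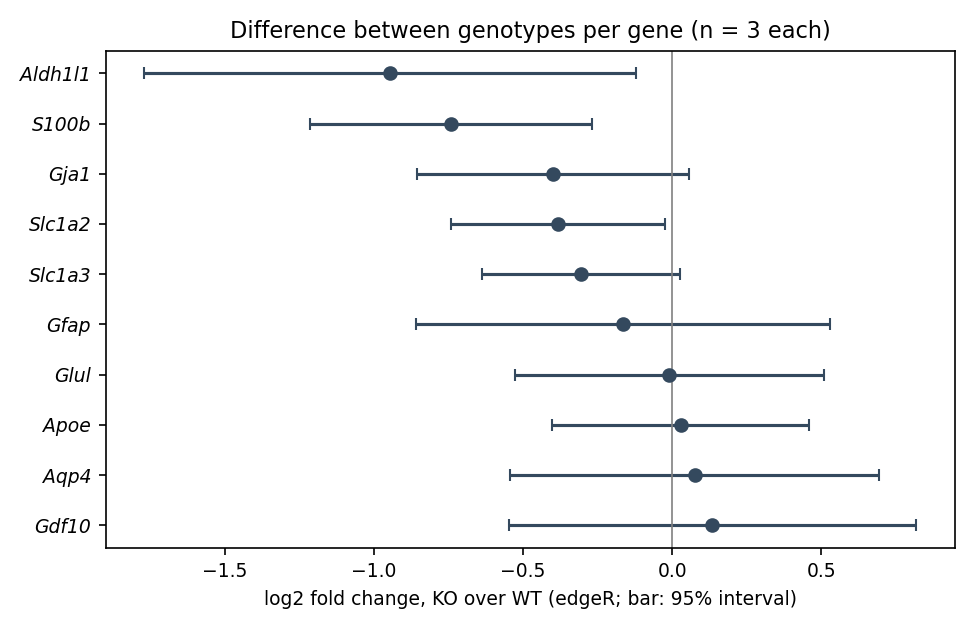
Log2 fold change of KO over WT for each glial gene, from edgeR's quasi-likelihood fit on 3 KO and 3 WT libraries; bars are 95% intervals. The intervals of Aldh1l1, S100b and Slc1a2 lie below 0 before adjustment, and those of the other 7 genes cross 0.

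Among the identity genes of astrocytes, Aldh1l1 and S100b had the largest estimates of the 10 and Gfap a small one. S100b encodes a calcium binding protein of the EF-hand type that fills the cytoplasm of astrocytes and Bergmann glia. It lies on chromosome 10 (76253853 to 76261159, plus strand, GRCm38). It had 114, 50 and 113 counts in KO replicates 1 to 3, against 134, 152 and 167 in WT replicates 1 to 3. On the CPM scale that was 145, 74.5 and 179 in KO and 201, 229.9 and 235 in WT. KO replicate 2 was far below the other libraries, and the highest KO library lay below the lowest WT library. The log2 fold change was -0.74 (SE 0.22, 95% interval -1.22 to -0.27), with an edgeR adjusted p of 0.916 and rank 19 by p among the tested genes. The exact two-sided permutation test over the 6 libraries gave p = 0.1, the smallest that 3 against 3 allows. The log2 fold change was -0.47 without KO replicate 2, lower in size by more than 1.5 times. S100b took 12.4%, 8.29% and 14.7% of the summed CPM of the 10 genes in KO replicates 1 to 3, against 14.6%, 15.6% and 19.98% in WT replicates 1 to 3, so that as a share the groups just overlapped. Wilson 95% intervals for the outer values were 6.35% to 10.8% (KO replicate 2) and 17.4% to 22.8% (WT replicate 3).

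The 250 bases before the RefSeq start of S100b (chr10:76253586-76253835, plus strand, GRCm38.p6) are shown. S100b was picked as the only one of the 10 genes whose groups did not overlap, as they did not in 10.7% of all tested genes. Capitals mark the letters TTGGCA, bound by each subunit of nuclear factor I, whose members Nfia, Nfib and Nfix are glial transcription factors.
S100b: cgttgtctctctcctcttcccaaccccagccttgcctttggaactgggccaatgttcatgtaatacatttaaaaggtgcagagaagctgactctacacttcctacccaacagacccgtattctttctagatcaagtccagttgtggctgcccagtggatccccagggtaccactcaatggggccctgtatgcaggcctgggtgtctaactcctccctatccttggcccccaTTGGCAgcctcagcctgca
The match begins 19 bases before the RefSeq start, and 12.3% of the 32851 RefSeq windows of this length hold these letters on either strand. The bases just after this start were not found in a GENCODE transcript of S100b, so the distance holds for the RefSeq start only. RefSeq windows of 9 of the 10 genes were searched, and Aqp4 was left out of the search. None of the 11 windows of these genes held AACAAT, a SOX core (9.42% of all windows). The letters TTGGCA were also found before 1 of 3 Apoe starts, and TGANTCA, the AP-1 motif (6.75%), before Gja1.

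Aldh1l1, a folate enzyme widely used to label astrocytes, had 12, 14 and 7 counts in KO replicates 1 to 3, against 22, 29 and 11 in WT replicates 1 to 3. In CPM it had 15.2, 20.9 and 11.1 in KO and 33.0, 43.9 and 15.5 in WT. WT replicates 1 and 2 were high, and WT replicate 3 fell among the KO libraries. The log2 fold change was -0.95 (SE 0.39, 95% interval -1.77 to -0.12, edgeR adjusted p 0.987), and it was -0.60 without WT replicate 2. With at most 29 counts in any library Aldh1l1 was thinly counted. Counting alone gives a coefficient of variation of 30.2% in KO and 22.0% in WT, against 31.2% and 46.5% observed. Gfap, the intermediate filament of astrocytes, had 19, 15 and 10 counts in KO and 12, 16 and 20 in WT, replicates 1 to 3 in each. That was 20.8 ± 4.37 CPM in KO and 23.4 ± 5.13 CPM in WT (SD, n = 3 each), with overlapping groups and a log2 fold change of -0.16 (95% interval -0.86 to 0.53). It was -0.33 without WT replicate 1, -0.018 without KO replicate 3, -0.015 without WT replicate 3 and 0.14 with KO replicate 3 and WT replicate 3 both left out.

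**Figure D3:**
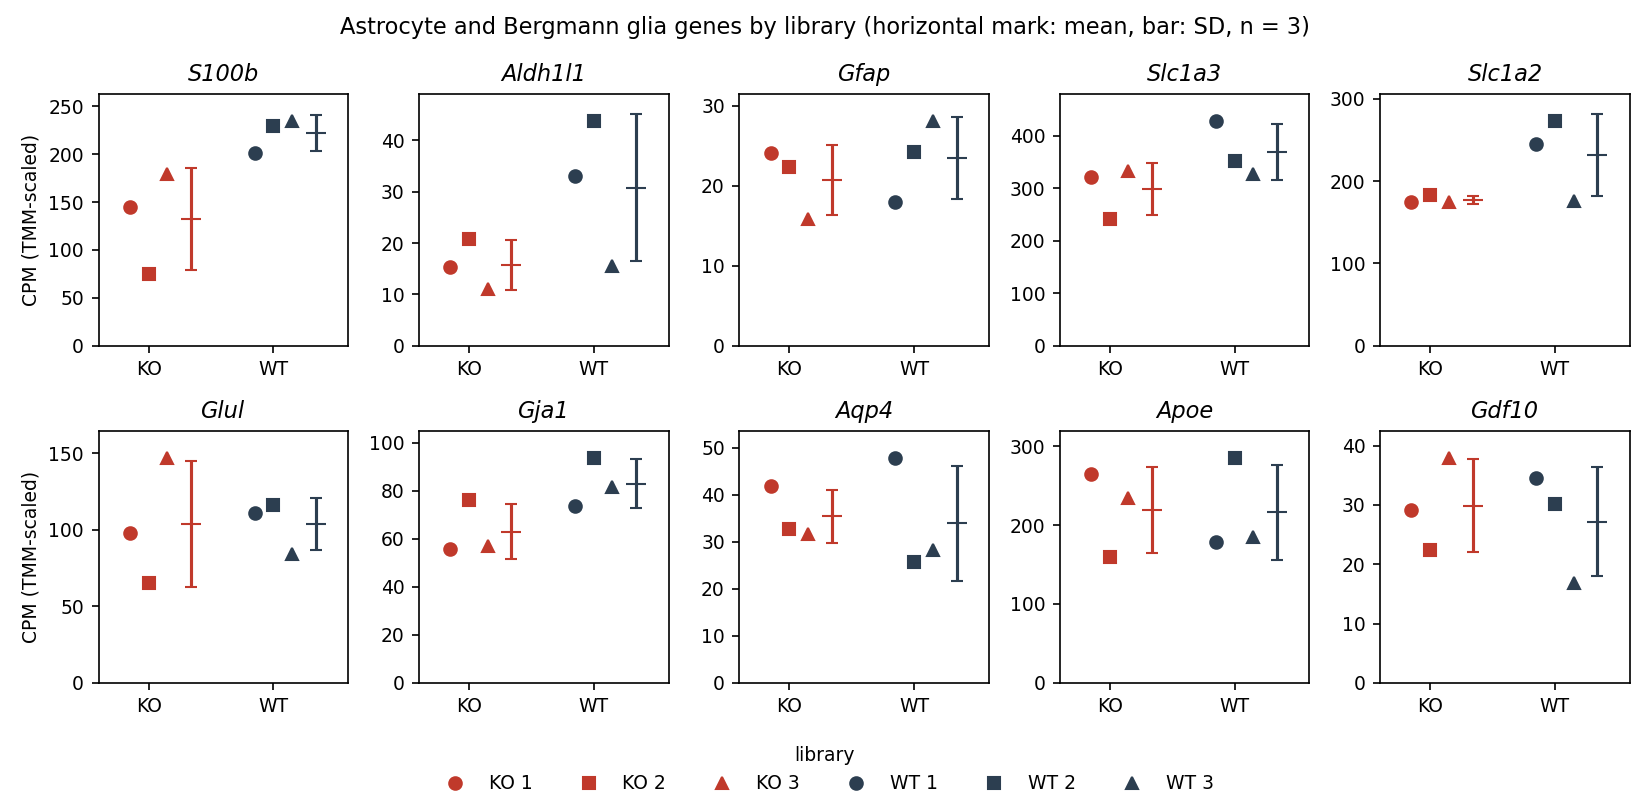
CPM of each glial gene in the 3 KO libraries (red) and the 3 WT libraries (dark), 1 symbol per replicate number, with the mean (horizontal mark) and SD beside them. The S100b points of KO (74.5 to 179) lie below those of WT (201 to 235), and the other 9 genes overlap.

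Glutamate uptake and recycling was read in 2 transporters and 1 enzyme, and none of them passed the adjusted test. Slc1a3 encodes GLAST, the main glutamate transporter of Bergmann glia, and lies on chromosome 15 (8634124 to 8710764, minus strand). It had the most counts of the 10, with 253, 162 and 210 in KO replicates 1 to 3 and 286, 233 and 232 in WT replicates 1 to 3. In CPM it read 321, 241 and 332 in KO and 429, 352 and 327 in WT. KO replicate 2 was the lowest library, and KO replicate 3 lay just above WT replicate 3. The log2 fold change was -0.31 (SE 0.16, 95% interval -0.64 to 0.025, edgeR adjusted p 0.987). It was -0.18 without KO replicate 2, -0.19 without WT replicate 1 and -0.48 without the libraries that hold Y-linked counts.

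The 250 bases before the RefSeq start of Slc1a3 (chr15:8710808-8711057, minus strand, GRCm38.p6) are shown for the glial gene with the most counts. Capitals mark a TATA motif (TATAAA), further along a GC box (GGGCGG), and last a STAT motif, which reads TTCNNNGAA, each searched on both strands.
Slc1a3: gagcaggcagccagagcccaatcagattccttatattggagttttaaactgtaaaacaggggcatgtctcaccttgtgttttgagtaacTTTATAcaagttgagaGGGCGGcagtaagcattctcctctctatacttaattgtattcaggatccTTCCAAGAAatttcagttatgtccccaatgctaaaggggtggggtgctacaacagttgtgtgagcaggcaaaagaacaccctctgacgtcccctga
The 3 motifs do not overlap. The STAT letters begin 96 bases before the RefSeq start and occur in 7.02% of all RefSeq windows. The TATAAA letters begin 161 bases before it (12.4%) and the GC box 145 bases before it (32.7%). The bases just after this start were not found in a GENCODE transcript of Slc1a3, so the distances hold for the RefSeq start only. None of the other windows searched held the STAT letters, and no window of Aqp4 was searched.

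Slc1a2 encodes GLT-1, the glutamate transporter that dominates in forebrain astrocytes. It had 138, 123 and 110 counts in KO replicates 1 to 3, against 164, 181 and 125 in WT replicates 1 to 3. The KO libraries lay close together at 175, 183 and 174 CPM, while WT read 246, 274 and 176 CPM. WT replicate 3 fell within the KO range and the other WT libraries lay above it. The log2 fold change was -0.38 (SE 0.17, 95% interval -0.74 to -0.023, edgeR adjusted p 0.987), and it was -0.24 without WT replicate 2. The KO spread of 2.79% of the mean was below the 8.99% that counting alone gives. Per exon length Slc1a3 exceeded Slc1a2 by 2.82, 2.03 and 2.94 times in KO replicates 1 to 3 and by 2.68, 1.98 and 2.86 times in WT replicates 1 to 3. The ratio averaged 2.59 ± 0.496 in KO and 2.51 ± 0.463 in WT (SD, n = 3 each), a difference smaller than the spread.

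Glul, the glutamine synthetase that turns glutamate into glutamine, had 77, 44 and 93 counts in KO replicates 1 to 3 and 74, 77 and 60 in WT replicates 1 to 3. In CPM it read 97.8, 65.6 and 147 in KO and 111, 116 and 84.5 in WT. KO held both the lowest and the highest library. The means were 103.5 ± 41.1 CPM in KO and 103.9 ± 17.1 CPM in WT (SD, n = 3 each), and the log2 fold change was -0.0098 (95% interval -0.53 to 0.51, edgeR adjusted p 0.999). It was 0.22 without KO replicate 2, -0.34 without KO replicate 3 and -0.47 without the libraries that hold Y-linked counts. No test compared Glul with the transporters, and its interval holds both of their estimates.

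Among genes of water transport and coupling the estimate was below 0 for Gja1 and near 0 for Aqp4, with intervals that cross 0 in both. Gja1 encodes connexin 43, a gap junction subunit that couples astrocytes. It had 55.9, 76.0 and 57.0 CPM in KO replicates 1 to 3, on 44, 51 and 36 counts, against 73.4, 93.8 and 81.7 CPM in WT replicates 1 to 3, on 49, 62 and 58 counts. KO replicate 2 lay just above WT replicate 1, and the other KO libraries lay below every WT library. The log2 fold change was -0.40 (SE 0.22, 95% interval -0.86 to 0.057, edgeR adjusted p 0.987). Aqp4, the water channel of astrocyte endfeet, had 33, 22 and 20 counts in KO and 32, 17 and 20 in WT, replicates 1 to 3 in each. It averaged 35.5 ± 5.62 CPM in KO and 33.9 ± 12.2 CPM in WT (SD, n = 3 each), and the log2 fold change was 0.075 (95% interval -0.54 to 0.69).

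The estimates of the secreted factors lay near 0. Apoe, the lipoprotein that carries cholesterol from astrocytes, had 209, 107 and 148 counts in KO replicates 1 to 3 and 119, 189 and 131 in WT replicates 1 to 3. In CPM that was 265, 159 and 234 in KO, against 178, 286 and 184 in WT. Each genotype spread over most of the same range, and the log2 fold change was 0.028 (SE 0.20, 95% interval -0.40 to 0.46). Gdf10, a growth factor of the transforming growth factor beta family that marks Bergmann glia in the mouse, had 23, 15 and 24 counts in KO and 23, 20 and 12 in WT, replicates 1 to 3 in each. It averaged 29.9 ± 7.84 CPM in KO and 27.2 ± 9.17 CPM in WT (SD, n = 3 each), and the log2 fold change was 0.14 (95% interval -0.55 to 0.82). The edgeR adjusted p of Gfap, Aqp4, Apoe and Gdf10 was 0.997.

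The 10 genes did not vary as a block from library to library. Set against each gene's own mean over the 6 libraries, 4, 3 and 5 genes were above it in KO replicates 1 to 3, against 8, 9 and 3 in WT replicates 1 to 3. KO replicate 2 held the lowest value of 4 genes (S100b, Slc1a3, Glul and Apoe), KO replicate 3 that of 3 and WT replicate 1 that of none. WT replicate 2 held the highest value of 4 genes. In KO replicate 2 the median deviation of the 10 genes was -0.22 on the log2 scale, and in WT replicate 3 it was -0.20, against 0.28 in WT replicate 1 and 0.30 in WT replicate 2. By this median WT replicate 3 lay nearer to the KO libraries than to the other WT libraries, although its S100b was the highest of all 6. The replicate spread exceeded what counting alone gives in 7 of 10 genes in KO and 8 of 10 in WT.

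**Figure D4:**
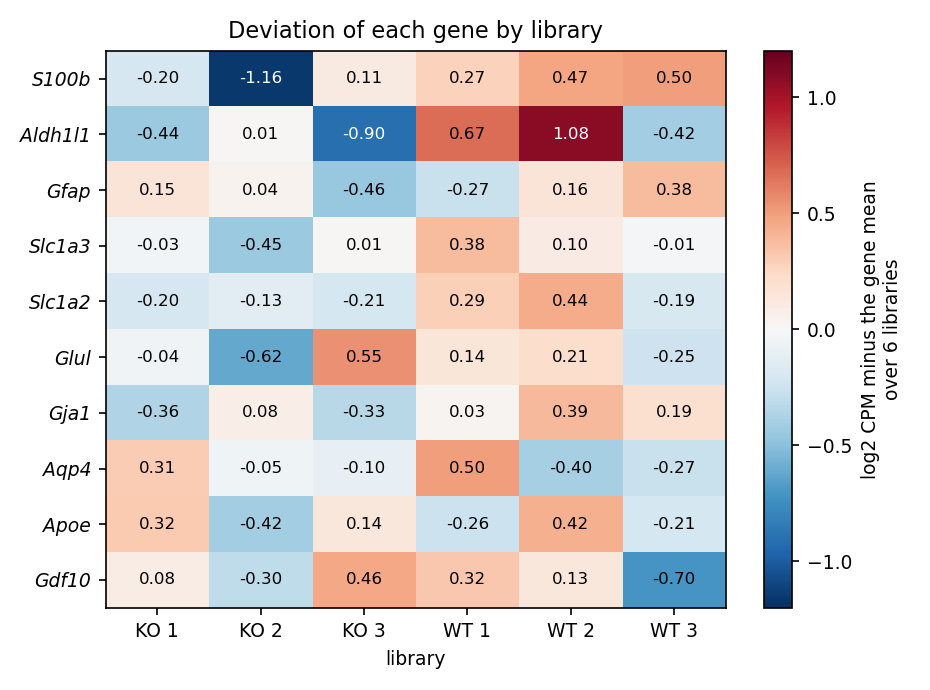
Log2 CPM of each glial gene minus its mean over the 6 libraries, KO libraries left and WT libraries right; red is above the mean and blue below. The largest deviations are S100b in KO replicate 2 (-1.16) and Aldh1l1 in WT replicate 2 (1.08), and no column has 1 colour throughout.

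The likeness of other tested genes to the summed glial level was measured as the mean absolute difference of centred log2 CPM over the 6 libraries, among 2229 genes outside the 10 with a mean of at least 50 CPM. The 3 nearest were Sec23ip (0.054), Exoc8 (0.056) and Ska3 (0.058). Sec23ip and Ska3 share 334 and 78 bases of exon with the other strand.

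Wider lists of glial genes also held no gene past the adjusted threshold. Most of these lists hold some of the 10 genes, which are left out of the counts that follow. Of the other tested identity markers of astrocytes 11 were below 0 and 4 above, with a median log2 fold change of -0.083. The lowest p belonged to Aldoc, which Purkinje cells of zebrin stripes express too (-0.39, SE 0.23), and to Bcan, a matrix proteoglycan (-0.62, SE 0.42). Aldoc had 203, 85 and 196 counts in KO replicates 1 to 3, against 198, 230 and 190 in WT replicates 1 to 3. KO replicate 2 was far below the other libraries, as for S100b. The groups of Aldoc overlapped in CPM, while those of S100b did not. Of 10 other tested Bergmann glia markers 4 were below 0 and 6 above, with a median of 0.024. The lowest p there were those of Gria1, an AMPA receptor subunit of Bergmann glia that neurons express too (299 ± 21.2 CPM in KO and 367 ± 45.1 CPM in WT, SD, n = 3 each; -0.29, SE 0.14), and Sept4, a septin of Bergmann processes (-0.42, SE 0.24).

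Among transmitter uptake and recycling genes 2 of 5 tested were below 0, with a median of 0.015. Among them Glud1, glutamate dehydrogenase, lay at 0.14 (SE 0.26). Its 3 KO libraries lay above its 3 WT libraries in CPM, as in 4.61% of all tested genes. Among genes of water, potassium and coupling 6 of 8 were below 0, with a median of -0.15, a sodium bicarbonate cotransporter, Slc4a4, at -0.29 (SE 0.18) and Kcnj16, a potassium channel subunit, at -0.33 (SE 0.32). Lipoprotein and cholesterol genes had 4 of 7 below 0 and a median of -0.13. Their lowest p was that of Npc2, a lysosomal cholesterol carrier found in many cell types. Npc2 had 61, 43 and 42 counts in KO replicates 1 to 3, against 83, 70 and 61 in WT replicates 1 to 3, a log2 fold change of -0.60 (SE 0.21, edgeR adjusted p 0.916), and its groups did not overlap in CPM. Clu, an astrocyte apolipoprotein, lay at -0.31 (SE 0.31).

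Secreted synapse and matrix factors had 6 of 7 below 0 and a median of -0.055, with Sparc, a matricellular protein, at -0.33 (SE 0.19) and Bcan as above. Notch and Hedgehog genes, through which Purkinje cells instruct Bergmann glia, had 4 of 7 below 0 and a median of -0.13, with the ligand Dll1 at -0.35 (SE 0.25; 867 bases shared with the other strand) and the receptor Ptch1 at -0.46 (SE 0.35). Genes of astrocyte reactivity were mostly too low to test. Of 24 listed, 6 had 0 counts in all libraries and 4 were tested; the 3 of them outside the 10 genes were above 0, with a median of 0.057. Cp, ceruloplasmin, had a log2 fold change of 0.15 (SE 0.19; 108 bases shared with the other strand) and Ptx3, a pentraxin, 0.057 (SE 0.44). Of 15 genes of the S100 family list 2 were tested, S100b and S100a11, and S100a11 lay at -0.17 (SE 0.23).

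Purkinje cell markers were also lower in summed level in the KO libraries. The 12 Purkinje markers summed to 2091, 2746 and 2430 CPM in KO replicates 1 to 3, against 3137, 3457 and 2808 CPM in WT replicates 1 to 3, so the KO libraries all lay below the WT libraries. Of the 10 tested 8 were below 0, with a median of -0.33. For 3 of the 10 tested all KO libraries lay below all WT libraries in CPM, against 6.13% of all tested genes. In edgeR's quasi-likelihood test 3 were lower in KO at an unadjusted p under 0.05, against 3.05%, and 0 passed the adjusted threshold. Itpr1, the IP3 receptor, was the most abundant, with 822 to 889 counts in KO and 1029 to 1273 in WT. It shares 181 bases of exon with the other strand. The sum was also taken without Itpr1, and no other marker was left out in this way. Without Itpr1 the sum was 961, 1426 and 1129 CPM in KO replicates 1 to 3. In WT replicates 1 to 3 it was 1313, 1532 and 1359 CPM, and the groups overlapped through KO replicate 2 only. The log2 ratio of the mean sums, KO over WT, was -0.37 with Itpr1 and -0.26 without it. Pcp2, a Purkinje cell protein, had 71, 60 and 70 counts in KO and 60, 59 and 47 in WT, a log2 fold change of 0.24 (SE 0.20). Pcp2 shares 941 bases of exon with the other strand. Itpr1 and Pcp2 were chosen after their values were seen. Granule cell markers ranged from 563 to 655 CPM in KO and 573 to 635 CPM in WT, and molecular layer interneuron markers from 340 to 396 CPM in KO and 378 to 409 CPM in WT. Oligodendrocyte markers ranged from 149 to 184 CPM in KO and 162 to 192 CPM in WT. Of the microglia markers, Tmem119, C1qb and Aif1 had at most 2 counts in any library. The 9 endothelial markers summed to at most 53.3 CPM in KO and 36.0 CPM in WT. Choroid plexus and ependymal markers ranged from 517 to 546 CPM in KO and 443 to 466 CPM in WT, nearly all of it Rarres2, while Folr1 and Tmem212 had 0 counts in every library. The part of these cell types in the glial values was not tested.

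**Figure D5:**
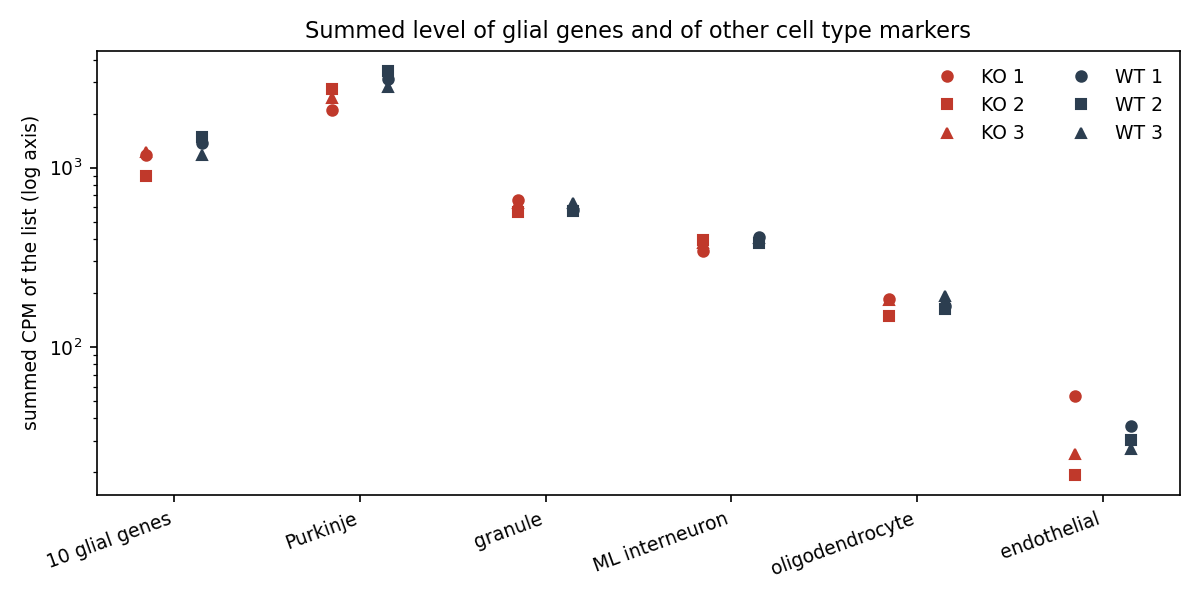
Summed CPM (log axis) of the 10 glial genes and of marker lists of other cell types, in 3 KO libraries (red, left) and 3 WT libraries (dark, right). The KO sums lie below all WT sums for the Purkinje list (at most 2746, against at least 2808) and overlap WT for the glial genes and for the granule, molecular layer interneuron, oligodendrocyte and endothelial lists.

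The authors compared the same libraries. In the authors' deposited DESeq table, 6 of the 10 genes had a lower mean in KO, and 1 had an unadjusted p under 0.05, against 307 of the 16540 genes with a p there (1.86%). That gene was S100b, with a normalised mean of 90.2 in KO and 148 in WT, a fold of 0.610 and p = 0.0091 in the authors' deposited DESeq table. In the authors' deposited edgeR table, 2 of the 10 had an unadjusted p under 0.05, S100b with a WT over KO log2 ratio of 0.72 (p = 0.0051) and Aldh1l1 with 0.93 (p = 0.029), against 464 of its 24420 genes (1.9%). That column runs WT over KO, so a positive value is a lower level in KO. The 1.9% is a share of all 24420 genes of that table and not of tested genes only. Of the 24421 genes counted, 7881 had 0 counts in every library. Slc1a2, below an unadjusted p of 0.05 here, had p = 0.087 in the authors' deposited DESeq table and p = 0.077 in the authors' deposited edgeR table.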

How the data were processed

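RNA-seq libraries of 3 KO and 3 WT mice were analysed from the per-sample files deposited by the authors, whose unit is raw counts per gene symbol. Per the labels' protocols, total RNA was extracted with TRIzol, made into libraries with a TruSeq mRNA kit and read as single ends on an Illumina HiSeq. Per the submitters' processing notes, the tools were TopHat, HTSeq 0.9.1, edgeR and DESeq, on GRCm38 (mm10); annotation and strand setting are not given in the sources used. The 5 summary rows that name no gene, 98.8% of uniquely aligned reads in the largest, entered neither library sizes nor tests. The authors' deposited DESeq table gives mean normalised signal per genotype, a fold ratio and a p-value, while their deposited edgeR table holds a log2 ratio beside a p-value; both were used for description, and 1 DESeq column with non-numeric cells was not used.

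KO was compared with WT with R 4.3.3 and edgeR 4.0.16 (functions glmQLFit and glmQLFTest on all 6 libraries with no covariate, TMM factors of 0.958 to 1.03, filterByExpr with a minimum count of 10, Benjamini-Hochberg adjustment over 5320 genes, threshold 0.05). Standard errors and 95% intervals follow from the quasi-likelihood F statistic. CPM uses TMM-scaled library sizes. Exon lengths and overlaps come from GENCODE mouse release M21 (95.8% of symbols matched), and promoter windows from RefSeq on GRCm38.p6. The fit was tested on simulated data. Alternatives used DESeq2 1.42.0, limma 3.58.1 (voom), the exact test, other scalings and filters, a replicate block and leaving out libraries. The 10 genes, the lists and the tests were chosen with earlier results of these data known. The text names the 10 genes; in each glial list, the other genes that pass or else the 2 with the lowest p; the 3 genes nearest to the summed level; and the opposite-strand partners. Some genes that this rule or the marker lists take are not reported here. The series text calls the replicates biological. Replicates of a group differed beyond counting noise (chi-square over its degrees of freedom from 3.17 to 4.99), so none were merged. Wilson intervals and the limits set by 3 counts cover counting error only.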

Additional observations from a re-analysis of the deposited data

Results flagged for a closer look

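Most reads lay outside the gene counts used here: 98.8% of the uniquely aligned reads, averaged over libraries, were in no gene. Only their total is known, and how many of them come from the 10 glial genes was not tested.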

How the results depend on the processing

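None of the 10 glial genes passed under any of the 17 alternatives, of which 2 were chosen after seeing the data: all uniquely aligned reads as library size, and leaving out both libraries with Y-linked reads. The count of all genes called was 6 with no filter on low counts, 1 when both Y-positive libraries were left out, and 0 to 1 when single libraries were; the cause was not tested. The log2 ratio of the summed level ranged from -0.38 to -0.17 leaving out each library. S100b, Aldh1l1, Slc1a2, Slc1a3 and Gja1 stayed below 0 in all 17 alternatives. S100b ranged from -1.01 to -0.47, with adjusted p from 0.290 (no filter) to 1.00. Genes near 0 changed sign. Leaving out each library, Apoe ranged from -0.14 to 0.28, Glul from -0.34 to 0.22, Gfap from -0.33 to -0.015, Aqp4 from -0.082 to 0.40 and Gdf10 from -0.13 to 0.34. Apoe was -0.0029 with no normalization factors and -0.016 with all uniquely aligned reads as library size, and Glul was 0.014 with no filter and 0.023 in DESeq2. With both Y-positive libraries left out, Glul was -0.47, Gdf10 -0.32, Apoe -0.13 and Gfap 0.14. The replicate block called 0 genes and 0 of the 10, with 177 genes lower and 110 higher at an unadjusted p under 0.05. Over tested genes, same-numbered KO and WT samples had correlations of 0.143, 0.079 and 0.122 between their deviations from the group means, and every sample correlated best with its own number, a hint from the data and not the design; the labels name no pairing. With 15.3 to 229 counts per gene and library on average, the 4 genes with the fewest counts (Aldh1l1, Gfap, Gdf10 and Aqp4) had the widest 95% intervals of the 10; how much of that width is depth was not tested.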
